A study of Mus musculus with 14 samples.

Results

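The 6 Irx genes lie in 2 clusters of the mouse genome, Irx3, Irx5 and Irx6 on chromosome 8 and Irx1, Irx2 and Irx4 on chromosome 13, and their H3K27me3 was followed through 7 Cut&Tag libraries of mouse embryonic stem cells (mESCs). A peak was assigned to a gene if it lay within 10 kb of the RefSeq gene body, which gave 43 of the 74458 peaks in the deposited count table, 16 on chromosome 8 and 27 on chromosome 13. All 43 passed the filter on low counts, as did 74441 peaks of the whole table.

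Irx genes encode Iroquois transcription factors, which carry a homeodomain of the TALE class and pattern the neural tube, heart, limb and other organs. The clusters arose by duplication, so that Irx1 and Irx3, Irx2 and Irx5, and Irx4 and Irx6 stand at the same place in each. In mESCs such developmental regulators are largely silent and are covered by H3K27me3, the histone mark that Polycomb repressive complex 2 deposits. In Cut&Tag, an antibody against the mark guides a transposase that cuts the chromatin nearby.

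All cells derived from G4 mESCs, a hybrid of the 129/Sv and C57BL/6 strains, and were grown with LIF on CD1 feeder cells. Each group carried a homozygous deletion of a Polycomb loop anchor made with CRISPR-Cas9, which removed one at Hoxa in 3 libraries, one at Wnt6 in 2 and one at Hmx1 in 2, and none of these lies on chromosome 8 or 13. There was no column for unedited cells, so the reference for a deletion was the pool of the other groups, and 7 IgG libraries were not analysed here. The methods describe clones screened for the deletion. A figure legend of the paper speaks of a clone per deletion with 3 replicates, while the Wnt6 and Hmx1 deletions have 2 libraries here. Where a deletion came from 1 clone, clone and deletion cannot be told apart. Nothing says that libraries came from separate cultures, so the p-values measure the spread between libraries, which may be technical.

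Totals over all peaks ranged from 6016500 to 36563541 counts per library, with a median of 23 to 148 counts per peak. At the genes of its own deletion each group kept at most 0.166% (Hoxa), 1.95% (Wnt6) and 0.403% (Hmx1) of the mean level in the others, where levels are CPM, counts scaled to the library total, adjusted by TMM factors. As a check of the cell type, 8 pluripotency genes, active in mESCs, held on average 45.8 CPM per gene, of which Esrrb had the most with 248 CPM over 22 peaks, followed by Sox2 with 59.4 CPM and Klf4 with 41.2 CPM. Pou5f1 had 13.1 CPM, Zfp42 3.06 CPM and Nanog 2.07 CPM, and Tdgf1 and Dppa5a had no peak. Over 7 genes of fibroblasts, the cell type of feeders, the average was 154 CPM, with no peak at Col3a1, and over the 6 Irx genes it was 495 CPM. Summed over each list, the fibroblast genes ranged from 1037 to 1099 CPM in the Hoxa deletion and from 1003 to 1139 CPM in the others. The pluripotency genes ranged from 386 to 401 CPM in the Hoxa deletion and from 329 to 366 CPM in the others, with 3 of 38 peaks higher in the Hoxa deletion (edgeR, adjusted p under 0.05), where 4.32% of all peaks were higher, and the part of this shift in the results below was not tested.

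For 3 Irx genes the 250 bases before a RefSeq start in build GRCm38.p6 are given, printed 5′ to 3′ on the strand of the gene. They are those with an entry in the promoter table used here, and are shown because CpG-rich sequence is a known feature of Polycomb targets. The Irx3 start is the end of the gene body used above, while the Irx2 and Irx4 starts lie 4.39 kb and 0.908 kb inside their gene bodies. Each of the 3 windows lay inside the strongest H3K27me3 peak of its gene. Capitals mark each CG, the only motif searched, which reads the same on both strands.
Irx3, chr8:91801655-91801904, minus strand: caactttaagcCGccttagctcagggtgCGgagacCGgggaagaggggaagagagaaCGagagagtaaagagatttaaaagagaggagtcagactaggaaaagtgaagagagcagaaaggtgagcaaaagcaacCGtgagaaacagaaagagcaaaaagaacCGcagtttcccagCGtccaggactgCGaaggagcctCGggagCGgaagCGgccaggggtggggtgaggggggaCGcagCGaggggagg
Irx2, chr13:72628570-72628819, plus strand: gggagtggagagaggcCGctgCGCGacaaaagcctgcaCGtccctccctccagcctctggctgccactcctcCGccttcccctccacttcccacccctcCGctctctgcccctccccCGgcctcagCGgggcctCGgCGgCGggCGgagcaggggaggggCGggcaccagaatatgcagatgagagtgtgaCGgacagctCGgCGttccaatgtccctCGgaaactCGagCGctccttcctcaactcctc
Irx4, chr13:73260247-73260496, plus strand: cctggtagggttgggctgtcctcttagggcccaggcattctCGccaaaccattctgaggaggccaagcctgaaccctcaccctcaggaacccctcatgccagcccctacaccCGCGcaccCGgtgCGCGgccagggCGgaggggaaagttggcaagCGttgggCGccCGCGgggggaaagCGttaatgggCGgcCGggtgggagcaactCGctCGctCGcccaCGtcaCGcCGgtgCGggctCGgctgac
The Irx3 window held 13 CG, the Irx2 window 19 and the Irx4 window 22. Of 32851 RefSeq promoters, 92.1% held at least 1 CG in the same window and the median was 6. At least 13 were found in 31.5% of promoters, at least 19 in 19.7% and at least 22 in 14.8%. The windows of Irx1, Irx5 and Irx6 were not examined.

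H3K27me3 was dense at every Irx gene. The median Irx peak had 31.2 CPM, against 3.80 CPM over all peaks, and 19 of the 43 Irx peaks reached 50 CPM, against 6.57% of all peaks. Per kb of peak, 13 of the 43 stood at or above the 99th percentile of the table. Of the 43 peaks, 17 overlapped the body of their own gene, 3 overlapped Irx3os, a noncoding RNA gene beside Irx3, 1 overlapped Crnde, a noncoding RNA gene beside Irx5, and 4 overlapped predicted genes. Some peaks lay over both the Irx gene and its neighbour, and 20 overlapped no RefSeq gene. The assay reads no strand, so a peak over such a pair belongs to neither gene alone.

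Levels below are the summed CPM of a gene's peaks divided by their covered length, which allows genes to be compared. In the Wnt6 and Hmx1 deletions the chromosome 8 genes were the denser cluster. Irx3, which patterns the ventral neural tube and is a distant target of regulatory sequence in Fto, had 93.7 and 84.8 CPM per kb in the Wnt6 deletion and 99.1 and 98.5 CPM per kb in the Hmx1 deletion. In the Hoxa deletion Irx3 had 67.5, 63.4 and 62.3 CPM per kb, below every other library.

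Irx5, which shapes the repolarization gradient of the heart, had 102 and 86.9 CPM per kb in the Wnt6 deletion and 102 and 100.2 CPM per kb in the Hmx1 deletion. It had 68.2, 62.9 and 64.7 CPM per kb in the Hoxa deletion. Irx6, which is expressed in bipolar cells of the retina, had 96.9 and 82.2 CPM per kb in the Wnt6 deletion, 96.7 and 97.4 CPM per kb in the Hmx1 deletion, and 67.3, 61.9 and 62.6 CPM per kb in the Hoxa deletion. For both genes the Hoxa libraries again lay below all others, and the groups did not overlap. Among single peaks this held for 53.6% of chromosome 8 and 9.19% of the whole table, so it is not particular to Irx3, Irx5 and Irx6.

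On chromosome 13, Irx1, which is expressed in developing lung and digits, had 58.3, 53.8 and 56.2 CPM per kb in the Hoxa deletion, 55.9 and 52.8 CPM per kb in the Wnt6 deletion, and 55.8 and 61.3 CPM per kb in the Hmx1 deletion. Irx2, its neighbour, had 73.5, 68.5 and 71.0 CPM per kb in the Hoxa deletion, 66.0 and 64.6 CPM per kb in the Wnt6 deletion, and 69.7 and 74.4 CPM per kb in the Hmx1 deletion. Irx4, which marks the cardiac ventricle, had 60.9, 56.5 and 58.1 CPM per kb in the Hoxa deletion, 57.1 and 55.2 CPM per kb in the Wnt6 deletion, and 60.0 and 62.1 CPM per kb in the Hmx1 deletion. For these 3 genes the Hoxa libraries lay within the range of the other libraries.

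**Figure D1:**
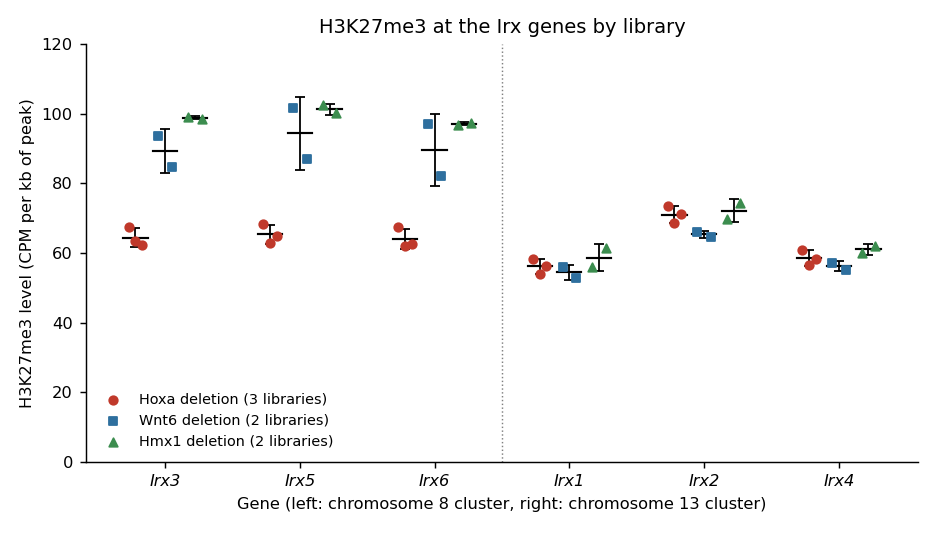
H3K27me3 level (CPM per kb of peak) of each Irx gene in each of the 7 libraries, with colours and symbols for the deletion, horizontal lines for group means and bars for the SD. The 3 Hoxa libraries sit between 61.9 and 68.2 at Irx3, Irx5 and Irx6, where the other libraries sit between 82.2 and 102, and they sit among the other libraries at Irx1, Irx2 and Irx4.

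The order of the genes by level differed between groups. In the 4 Wnt6 and Hmx1 libraries it ran from Irx5 (97.8 ± 7.29 CPM per kb, SD, n = 4) through Irx3 (94.0 ± 6.62) and Irx6 (93.3 ± 7.40) to Irx2 (68.7 ± 4.37), Irx4 (58.6 ± 3.05) and Irx1 (56.5 ± 3.55). The libraries of Irx5, Irx3 and Irx6 overlapped, as did those of Irx4 and Irx1, while the libraries of Irx6 and Irx2 and of Irx2 and Irx4 did not overlap. Compared within each of these libraries, Irx5 stood above Irx3 and Irx6 every time, and Irx4 above Irx1. In the Hoxa deletion Irx2 came first with 71.0 ± 2.51 CPM per kb (SD, n = 3), with no overlap above Irx5 (65.3 ± 2.68), Irx3 (64.4 ± 2.75) and Irx6 (63.9 ± 2.94). Irx4 (58.5 ± 2.19) and Irx1 (56.1 ± 2.20) followed, again with overlapping libraries, though Irx4 stood above Irx1 within each library. These are descriptions of levels, with no test.

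In the Hoxa deletion H3K27me3 was lower at all 3 chromosome 8 genes, by about the same proportion. The mean level relative to the other deletions was 66.8% at Irx5, 68.5% at Irx3 and 68.5% at Irx6. At the chromosome 13 genes it was 103% at Irx2, 99.9% at Irx4 and 99.3% at Irx1. In bulk counts, fewer copies of a chromosome, fewer cells with the mark and less mark per copy cannot be told apart. Without unedited cells, a lower level in the Hoxa deletion and a higher level in the Wnt6 and Hmx1 deletions cannot be told apart either.

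The strongest peak of each gene gave the same picture. At Irx3 it lay at chr8:91799630-91802369 over the gene start, and held 218, 194 and 208 CPM in the Hoxa deletion, 299 and 266 CPM in the Wnt6 deletion, and 329 and 304 CPM in the Hmx1 deletion. In the Hoxa deletion this peak had a log2 fold change of -0.53 ± 0.073 (SE), with a Benjamini-Hochberg adjusted p of 5.84e-07 in edgeR's quasi-likelihood test. All 3 Hoxa libraries lay below the 4 others.

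At Irx5 the strongest peak, chr8:92355746-92358531, held 223, 201 and 218 CPM in the Hoxa deletion, 334 and 278 CPM in the Wnt6 deletion, and 348 and 318 CPM in the Hmx1 deletion. Hoxa libraries against the rest gave -0.58 ± 0.073 on the log2 scale (SE, edgeR, adjusted p = 1.04e-07), the smallest adjusted p among the Irx peaks. At Irx6 the strongest peak, chr8:92673282-92675622, held 201, 185 and 186 CPM in the Hoxa deletion, 293 and 238 CPM in the Wnt6 deletion, and 280 and 287 CPM in the Hmx1 deletion. Here the Hoxa deletion differed by -0.52 ± 0.074 on the log2 scale (SE, edgeR, adjusted p = 1.20e-06). At both genes the groups did not overlap. Strong peaks of chromosome 8 in general behaved alike. Of its 302 peaks of at least 50 CPM, 92.1% were lower at an adjusted p under 0.05 in edgeR. In 93.7% of the 302 every Hoxa library lay below every other library.

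At Irx1 the strongest peak, chr13:71958675-71960106, held 147, 129 and 146 CPM in the Hoxa deletion, 139 and 123 CPM in the Wnt6 deletion, and 142 and 147 CPM in the Hmx1 deletion. At Irx2 it was chr13:72627284-72629498, with 252, 217 and 234 CPM in the Hoxa deletion, 212 and 207 CPM in the Wnt6 deletion, and 223 and 240 CPM in the Hmx1 deletion. At Irx4 it was chr13:73259416-73261553, with 141, 132 and 121 CPM in the Hoxa deletion, 122 and 121 CPM in the Wnt6 deletion, and 116 and 133 CPM in the Hmx1 deletion. The libraries of the Hoxa deletion overlapped those of the others at all 3 peaks, and the log2 fold changes were 0.030 ± 0.080 at Irx1, 0.085 ± 0.073 at Irx2 and 0.092 ± 0.080 at Irx4 (SE), with edgeR adjusted p of 0.887, 0.562 and 0.570.

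Of the 16 Irx peaks on chromosome 8, 16 were lower in the Hoxa deletion at an adjusted p under 0.05 in edgeR, with a median log2 fold change of -0.56 and a range from -0.96 to -0.48. This rule called 4.2% of all peaks lower, but 40.8% of the 5579 tested peaks of chromosome 8, whose median was -0.59. With a fold over 2 as a further condition, 0 of the 16 were called by edgeR or DESeq2, against 9.55% of chromosome 8. All 16 had an unadjusted p under 0.05. In 16 of 16 every Hoxa library lay below every other library, which held for 9.19% of all peaks and 53.6% of chromosome 8.

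The share called depended on the strength of a peak. Among the 302 chromosome 8 peaks of at least 50 CPM, 92.1% were lower, with a median of -0.54, and the 10 Irx peaks of that strength were all among them, with a median of -0.56. Of 5277 tested chromosome 8 peaks under 50 CPM, 37.9% were lower, with a median of -0.60, and 6 of 6 Irx peaks were, with a median of -0.63. These 6 had means from 4.08 to 24.9 CPM, where the median of all peaks was 3.80 CPM, so the shares are not matched for strength. The 2 weakest Irx peaks of the cluster had the largest differences. One, 6.53 kb from Irx3, held 3.17, 2.56 and 2.71 CPM in the Hoxa deletion and 4.39 to 6.14 CPM in the others, a log2 fold change of -0.92 ± 0.21 (SE). The other, at Irx6, held 2.94, 5.77 and 3.93 CPM against 8.11 to 10.1 CPM, a log2 fold change of -0.96 ± 0.18 (SE).

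Of the 27 Irx peaks on chromosome 13, 0 were lower and 0 were higher at an adjusted p under 0.05 in edgeR, and DESeq2 also gave 0, while 2 had an unadjusted p under 0.05. On chromosome 13 as a whole 1.3% of peaks were lower and 5.31% higher. The median of the 27 was -0.0092 and that of the chromosome 0.035. In 3 of the 27 every Hoxa library lay below every other library, against 4.73% of chromosome 13. The peak with the smallest adjusted p lay 5.18 kb beyond Irx4, with 7.64, 8.71 and 8.38 CPM in the Hoxa deletion and 9.37 to 12.4 CPM in the others, a log2 fold change of -0.41 ± 0.15 (SE, edgeR, adjusted p = 0.0751).

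**Figure D2:**
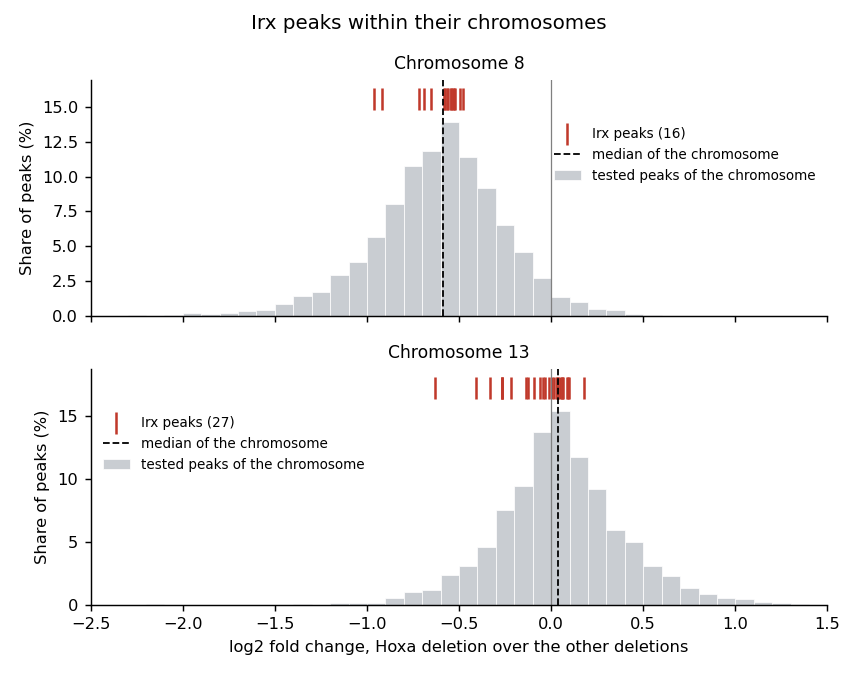
Distribution of the log2 fold change of H3K27me3 in the Hoxa deletion over the other deletions (x axis) as the share of tested peaks per bin of 0.1 (y axis, %), for chromosome 8 and chromosome 13, with a tick for each Irx peak and a dashed line at the chromosome's median. The 16 ticks of chromosome 8 lie between -0.96 and -0.48 around the median of -0.59, and the 27 ticks of chromosome 13 lie around 0 with a tail to -0.63.

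Since the whole of chromosome 8 shifted, the fit was repeated with offsets that set the median of each chromosome equal in every library. The median of the 16 Irx peaks was then -0.015 with a range from -0.42 to 0.069, and 0 were lower at an adjusted p under 0.05, against 1.36% of chromosome 8, with 1 lower at an unadjusted p under 0.05. The strongest peaks of Irx3, Irx5 and Irx6 had log2 fold changes of 0.015, -0.031 and 0.024 in that fit. Relative to its own chromosome, no difference of the Irx cluster was detected in this comparison.

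Ratios within a library do not depend on its scaling factor, so the genes were also set against their counterparts on the other chromosome. The log2 ratio of Irx3 to Irx1 was 0.30, 0.32 and 0.24 in the Hoxa deletion, 0.83 and 0.77 in the Wnt6 deletion, and 0.91 and 0.77 in the Hmx1 deletion. The log2 ratio of Irx5 to Irx2 was -0.40, -0.41 and -0.42 in the Hoxa deletion, 0.33 and 0.14 in the Wnt6 deletion, and 0.26 and 0.14 in the Hmx1 deletion. The log2 ratio of Irx6 to Irx4 was -0.60, -0.61 and -0.64 in the Hoxa deletion, 0.019 and -0.17 in the Wnt6 deletion, and -0.053 and -0.093 in the Hmx1 deletion. In each pair the Hoxa libraries lay apart from and below the rest.

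The difference of the Hoxa deletion from the others was -0.54 for Irx3 with Irx1, -0.63 for Irx5 with Irx2 and -0.54 for Irx6 with Irx4. Each had p = 0.0286 in a two-sided exact permutation test over the 7 libraries, the smallest p that the 35 assignments allow, and 0.0286 after adjustment over the 3 pairs. The shift of chromosome 8 was known when the test was chosen, so it is no independent evidence of its direction. With each gene taken relative to the median of its chromosome in the library, the differences were 0.072, -0.022 and 0.066, with exact permutation p of 0.229, 0.771 and 0.286, or 0.429, 0.771 and 0.429 after adjustment over the pairs.

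**Figure D3:**
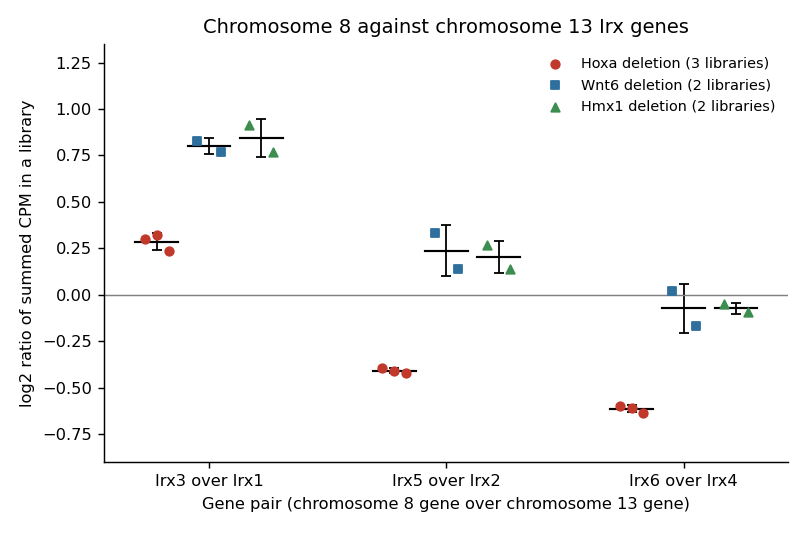
Log2 ratio of the summed CPM of a chromosome 8 Irx gene over its chromosome 13 counterpart (y axis) in each of the 7 libraries for the 3 gene pairs (x axis), with colours and symbols for the deletion, lines for group means and bars for the SD. The 3 Hoxa libraries sit 0.54 to 0.63 below the mean of the 4 others in every pair, and the Wnt6 and Hmx1 libraries overlap.

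Summed over each cluster, the chromosome 8 genes held 0.850, 0.849 and 0.825 times the CPM of the chromosome 13 genes in the Hoxa deletion (0.841 ± 0.0140, SD, n = 3). In the Wnt6 deletion this ratio was 1.32 and 1.19, and in the Hmx1 deletion 1.30 and 1.21, with 1.25 ± 0.0638 over these 4 libraries (SD). Replicate 2 of the Wnt6 deletion, the deepest library, had the lowest chromosome 8 sum among the 4, 1592 CPM against 1827 to 1869 CPM. Without it, 16 of 16 chromosome 8 Irx peaks were still lower in the Hoxa deletion, with a median of -0.62, where 30.4% of the chromosome was lower.

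Each of the other deletions served alone as the comparison in turn. Against the Wnt6 deletion alone, 15 of 16 chromosome 8 Irx peaks were lower in the Hoxa deletion (edgeR, median -0.50), where 30.8% of the chromosome was. Against the Hmx1 deletion alone, 15 of 16 were lower (median -0.65), where 27.1% of the chromosome was. Both comparisons share the Hoxa libraries.

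Relative to the mean of the other libraries, the Wnt6 deletion stood at 118% at Irx5, 114% at Irx3 and 116% at Irx6, and at 91.5% to 95.2% at the chromosome 13 genes. The Hmx1 deletion stood at 132%, 133% and 131% at the same chromosome 8 genes, and at 105% to 106% at those of chromosome 13. The Wnt6 and Hmx1 deletions themselves gave no call at the Irx genes in edgeR against the others pooled, a comparison in which the others include the Hoxa libraries. In the Wnt6 deletion 0 of 16 chromosome 8 peaks were higher or lower in edgeR or DESeq2, where 0.0179% of the chromosome was higher, with 2 at an unadjusted p under 0.05 and a median of 0.22, which was 0.13 without replicate 1 of the Wnt6 deletion and 0.35 without its replicate 2. For chromosome 13 the counts were 0 of 27 in both tools, with 1 at an unadjusted p under 0.05 and a median of -0.082, and 0.0% of that chromosome was higher. In the Hmx1 deletion 0 of 16 chromosome 8 peaks were called by edgeR and 1 by DESeq2, higher, where DESeq2 called 0.179% of the chromosome higher, with 10 at an unadjusted p under 0.05 and a median of 0.39, and 0.0% of the chromosome was higher in edgeR. On chromosome 13, 0 of 27 were called in both tools, with 3 at an unadjusted p under 0.05 and a median of 0.12, where 0.0% of the chromosome was higher.

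For the Hmx1 deletion the count moved with the model and the libraries. With the 3 genotypes as separate terms, 10 of 16 chromosome 8 Irx peaks were higher in the Hmx1 deletion, where 6.33% of the chromosome was. Without replicate 1 of the Wnt6 deletion 8 of 16 were higher, where 2.31% of the chromosome was, and without replicate 2 it was 1, where 0.395% of the chromosome was. Set against the Wnt6 deletion alone, the median of the Hmx1 deletion at the 16 peaks was 0.11, with a range from -0.19 to 0.30.

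The space between the genes carried weaker H3K27me3. The chromosome 8 cluster spans 882 kb with gaps of 556 kb and 313 kb between its genes and holds 99 peaks, of which the 16 near the genes held 76.3% of the CPM. The chromosome 13 cluster spans 1311 kb with gaps of 661 kb and 625 kb and holds 93 peaks, of which the 27 near the genes held 83.1% of the CPM. The median peak between the genes had 2.80 CPM on chromosome 8 and 2.70 CPM on chromosome 13.

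The strongest peak between the genes was on chromosome 8 at chr8:92458700-92462627, 97.2 kb past Irx5, where RefSeq has no gene. It held 129, 132 and 113 CPM in the Hoxa deletion, 201 and 176 CPM in the Wnt6 deletion, and 172 and 214 CPM in the Hmx1 deletion, with no overlap between the Hoxa libraries and the rest. Between the Hoxa deletion and the rest it differed by -0.62 ± 0.082 on the log2 scale (SE, edgeR, adjusted p = 3.18e-07). Of all chromosome 8 peaks of at least 50 CPM, 92.1% were lower and 93.7% showed no such overlap. The strongest between the chromosome 13 genes, chr13:73159495-73160698, held 34.0, 37.6 and 39.5 CPM in the Hoxa deletion, 46.5 and 34.3 CPM in the Wnt6 deletion, and 41.6 and 37.5 CPM in the Hmx1 deletion, and the groups overlapped. Both peaks were chosen after their values were seen.

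Between the genes, most peaks of both clusters had a log2 fold change below 0 in the Hoxa deletion, and few of those on chromosome 13 passed the test. On chromosome 8, 83 of 83 peaks between the genes had a log2 fold change below 0, as had 5391 of 5579 tested peaks of the chromosome. The 83 had a median of -0.74. At an adjusted p under 0.05 in edgeR 40 were lower, 13 of them by a fold over 2, against 40.8% and 9.55% of the chromosome. With offsets by chromosome 4 were lower, 2 of them by a fold over 2, where 1.36% of the chromosome was lower. Chromosome 8 peaks within the interquartile CPM range of these peaks had a median of -0.58, with 32.8% lower. On chromosome 13, 54 of 66 had a log2 fold change below 0, against 1282 of 2920 tested peaks of the chromosome. The 66 had a median of -0.30. At an adjusted p under 0.05, 5 were lower, 1 of them by a fold over 2, where 1.3% and 0.137% of the chromosome were. The count of 5 was 1 without replicate 3 of the Hoxa deletion, without replicate 2 of the Wnt6 deletion or without replicate 2 of the Hmx1 deletion, 2 without replicate 2 and 3 without replicate 1 of the Hoxa deletion, 1 with the replicate block and 2 with DESeq2. Against the Wnt6 or the Hmx1 deletion alone it was 1. The share of chromosome 13 that was lower was 0.891% without replicate 2 of the Wnt6 deletion and 0.821% with DESeq2. Against the Wnt6 deletion alone this share was 0.685%, and against the Hmx1 deletion alone 0.857%. For the other fits it is not given here. Chromosome 13 peaks within the interquartile CPM range there had a median of 0.068, with 0.501% lower.

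Summed CPM between the chromosome 13 genes were 266, 284 and 249 in the Hoxa deletion, 321 and 313 in the Wnt6 deletion, and 298 and 307 in the Hmx1 deletion, so that the Hoxa libraries lay below the others. At the genes of the same cluster the summed CPM were 1493, 1387 and 1437 in the Hoxa deletion and 1336 to 1531 in the others, and overlapped. As a percentage of the level at the genes, the peaks between held 17.8, 20.5 and 17.3 in the Hoxa deletion and 20.02 to 23.4 in the others, which overlapped too. In 13 of the 66 peaks every Hoxa library lay below every other library, which held for 4.73% of chromosome 13 and 9.19% of all peaks. These peaks were picked out after their values were seen and were given no test of their own.

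**Figure D4:**
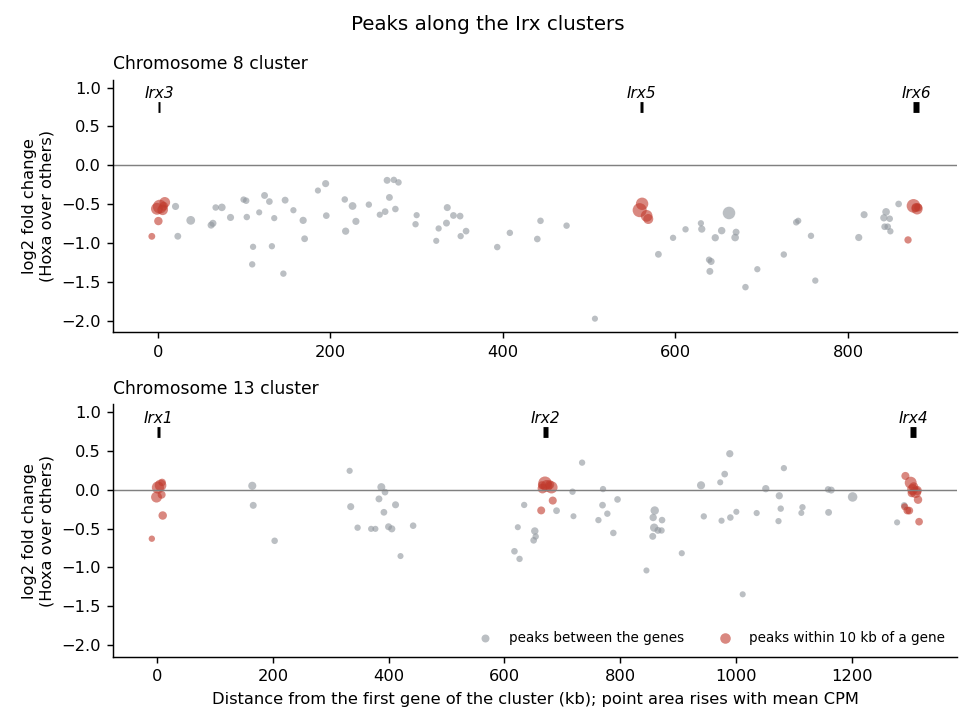
Log2 fold change of H3K27me3 in the Hoxa deletion over the other deletions (y axis) for each peak along the 2 Irx clusters, by distance from the first gene of the cluster (x axis, kb), with red points for peaks within 10 kb of an Irx gene, grey points for peaks between the genes, point area rising with mean CPM, and bars for the gene bodies. On chromosome 8 all 99 peaks lie below 0, as do 5391 of 5579 tested peaks of the chromosome. On chromosome 13 the red points have a median of -0.0092 and the grey points one of -0.30.

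The 10 kb limit fell in a stretch of weak peaks. On chromosome 8 the outermost peak inside it lay 6.53 kb from Irx3, with a mean of 4.08 CPM and a log2 fold change of -0.92, and the nearest outside lay 15.3 kb from Irx3, with 6.44 CPM and -0.82. On chromosome 13 the outermost inside lay 9.26 kb from Irx1, with 1.91 CPM and -0.63, and the nearest outside 10.2 kb from Irx4, with 2.77 CPM and -0.20.

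Other genes of the same class and of the same chromosomes were set beside the Irx genes. The other TALE homeobox genes, the Meis, Pbx, Pknox and Tgif genes and Mkx, several of which encode partners of Hox proteins, had 111 peaks, of which 9 were lower and 0 higher in the Hoxa deletion (edgeR), against 4.2% and 4.32% of all peaks, with a median of -0.11. Pbx4, the member of this list on chromosome 8, had 5 of 10 peaks lower, where 40.8% of the chromosome was, with a median of -0.55. Without it 4 of 101 were lower, or 3.96%, with a median of -0.099. Developmental transcription factor genes of chromosome 8 (Sall1, Hand2, Foxc2, Foxf1, Foxl1, Nkx6-3 and Tox3) had 36 of 44 peaks lower, with a median of -0.53, where the whole chromosome had 40.8% lower with a median of -0.59 and its peaks of at least 50 CPM had 92.1% lower. Hand2, a regulator of heart and limb development, had 12 of 12 lower, and Foxf1, which acts in lung and gut mesenchyme, 10 of 10, some shared with its neighbours Foxc2 and Foxl1, while Sall1, a zinc finger factor of the kidney, had 1 of 4. For 11 developmental genes of chromosome 13 (Foxc1, Foxf2, Foxq1, Tfap2a, Pitx1, Msx2, Barx1, Isl1, Otp, Nr2f1 and Id4), 1 of 88 peaks was lower, at Nr2f1, and 1 higher, at Tfap2a, with a median of -0.0099, where 1.3% of the chromosome was lower and 5.31% higher.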

How the data were processed

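Per the labels, H3K27me3 Cut&Tag libraries were made from mESCs with a Hoxa, Wnt6 or Hmx1 deletion and amplified by PCR, and groups were taken from the sample titles. The authors deposited raw counts over one shared peak list, without normalization. The submitters' processing notes name Trimmomatic, Bowtie2, SAMtools, Picard, MACS2, deepTools and the build mm10. How the peak list was made and whether reads or fragments were counted is not given in the sources used here, nor is the convention for peak starts. Gene bodies and promoter sequences came from RefSeq (GRCm38.p6).

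The fit used edgeR 4.0.16 in R 4.3.3 over all peaks. TMM factors scaled the libraries, filterByExpr by genotype removed 17 peaks, and glmQLFit and glmQLFTest compared each deletion with the others pooled, with Benjamini-Hochberg adjustment over all tested peaks. Standard errors were derived from the F statistic. A peak was called at an adjusted p under 0.05, and at a fold over 2 where stated. Alternatives were DESeq2 1.42.0, other scalings, filters, windows, models and comparison groups, a replicate block, and each library left out. The peaks between the genes were added after seeing the data. The procedure was tested on simulated data. Gene pairs were compared by exact permutation, and chromosome medians used a pseudocount of 0.1 CPM. Tables were made in Python 3.11.15 with pandas 2.3.3 and plots with matplotlib 3.10.9.

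All 6 genes are described, each by its peak of highest mean CPM. Members and gene lists were chosen with earlier results of these data known. Counting error was not reported separately, since PCR reads are not independent molecules.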

Additional observations from a re-analysis of the deposited data

How the results depend on the processing

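Of the alternatives tried, 576 of 645 kept the direction and the side of the threshold of their result, or moved it by less than the spread between libraries. With offsets by chromosome, the median log2 fold change in the Hoxa deletion was -0.015 at the chromosome 8 Irx peaks (0 lower). It was -0.071 at those of chromosome 13 and -0.19 between the chromosome 8 genes. Between these genes 4 of 83 were lower, in place of 40, where 1.36% of the chromosome was. The strongest Irx3 and Irx6 peaks changed sign to 0.015 and 0.024. Of the 16 chromosome 8 Irx peaks, 0 were lower and 0 higher at an adjusted p under 0.05. With the same offsets the medians were -0.082 for the Wnt6 deletion on chromosome 8, and 0.099 and 0.18 for the Hmx1 deletion on chromosomes 8 and 13. Relative to chromosome medians, the pair differences were 0.072, -0.022 and 0.066. The first and last changed sign, but no difference was detected (exact permutation p of 0.229 and 0.286). The offsets remove any shift of a whole chromosome by construction. For the other changes the cause was not tested.

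Against the Wnt6 deletion alone, the Hoxa medians were -0.50 and 0.055 on chromosomes 8 and 13, and 1 chromosome 8 peak was lower by a fold over 2. Against the Hmx1 deletion alone they were -0.65 and -0.10, with 1 chromosome 13 peak lower, where 0.857% of chromosome 13 was. A 50 kb window gave -0.69 and -0.11, a window of 0 kb gave 0.037 on chromosome 13, and offsets by abundance gave 1 lower peak on chromosome 13. The share of the chromosome with offsets by abundance is not given here. For the Wnt6 deletion the chromosome 8 median was 0.50 against the Hoxa deletion alone, which is the fit above with the sign reversed, and -0.11 against the Hmx1 deletion alone. Against the Hoxa deletion alone 15 peaks were higher, 1 by a fold over 2, where 30.8% of the chromosome was higher. The chromosome 13 median of the Wnt6 deletion was -0.053 with offsets by abundance, -0.055 against the Hoxa deletion alone, -0.15 against the Hmx1 deletion alone and 0.0036 with a 50 kb window. For the Hmx1 deletion the chromosome 8 median was 0.32 with offsets by abundance, 0.65 against the Hoxa deletion alone and 0.11 against the Wnt6 deletion alone. The last 2 are again fits given above with the sign reversed. Higher chromosome 8 peaks in the Hmx1 deletion numbered 10 with a term for each genotype, 15 against the Hoxa deletion alone and 1 with DESeq2. The shares of the chromosome were 6.33%, 27.1% and 0.179%. On chromosome 13, 1 peak was higher against the Hoxa deletion alone, where 0.857% of the chromosome was.

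With 1 library left out at a time, the Hoxa median ranged from -0.62 to -0.53 on chromosome 8 (16 peaks lower each time, 0 to 1 by a fold over 2) and from -0.043 to 0.025 on chromosome 13 (0 to 1 lower). Of chromosome 8 as a whole, 38.0% was lower without replicate 1 of the Wnt6 deletion and 30.4% without its replicate 2. The 1 lower chromosome 13 peak came without replicate 1 of the Wnt6 deletion, where 1.06% of chromosome 13 was lower. The Wnt6 medians ranged from 0.13 to 0.35 on chromosome 8 and from -0.093 to -0.030 on chromosome 13. The Hmx1 medians ranged from 0.33 to 0.52 on chromosome 8 (0 to 8 higher) and from 0.060 to 0.14 on chromosome 13. Correlations of same-numbered libraries, taken on deviations from group means, ran from -0.0415 to 0.0830. In a group of 2 libraries these deviations mirror each other, so the values cannot decide whether replicate numbers pair the libraries. Replicate 1 was the shallowest library of each group, with 8656908 (Hoxa), 9982841 (Wnt6) and 6016500 (Hmx1) counts. With the replicate block the Hoxa medians were -0.55 and -0.040, with 16 chromosome 8 peaks still lower, 1 peak between the chromosome 13 genes was lower in place of 5, and the Hmx1 median on chromosome 8 was 0.33. Weak peaks between the genes, at a few CPM, limit what single peaks can show there.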
